A study of Mus musculus with 18 samples.

Results

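The genes described here are those that make and destroy cyclic nucleotides: the adenylyl cyclases (Adcy) and the phosphodiesterases (Pde). Members were taken by name, as every row of the authors' deposited tables whose symbol starts with Pde or Adcy followed by a number. This gave 36 of 24015 rows, 26 with a Pde name and 10 with an Adcy name. Of the Pde names, 5 belong to genes that do not hydrolyse cyclic nucleotides. These are Pde4dip (myomegalin, a scaffold of the Golgi and centrosome), Pde6d (a carrier of prenylated proteins), Pde6g and Pde6h (inhibitory subunits of the photoreceptor enzyme) and Pde12 (a mitochondrial enzyme that trims RNA). RNA was sequenced from the microdissected dentate gyrus of C57BL/6 mice 8 weeks old, with 18 libraries in 6 groups of 3 and, per the labels' protocols, one animal behind each library. Mice of the EYFP_OE group overexpressed the fluorescent protein EYFP, and those of the cFos_OE group c-Fos, which with Jun proteins forms the transcription factor AP-1. A control hairpin was carried by shRNA-Ctrl_E0 and shRNA-Ctrl_E1, and a hairpin named for c-Fos by shRNA-cFos_E0 and by shRNA-cFos_E1. E0 is the state before neuronal activation, called sham in the comparisons, and E1 the state after it. The sources used here do not say how the constructs were delivered, which cells expressed them or how the neurons were activated. All mice carried a construct, so no group is unmanipulated.

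Cyclic AMP is a second messenger that neurons use to turn receptor and calcium signals into changes of excitability, synaptic strength and transcription. Adenylyl cyclases make it when the G protein subunit Gs, and for some isoforms calcium bound to calmodulin, activates them, and protein kinase A, the exchange factor Epac and cyclic nucleotide gated channels read it. Phosphodiesterases end the signal; some families cleave cAMP, some cleave cGMP and some cleave both. In dentate granule neurons this pathway is known for its part in long-term potentiation at the mossy fibre synapse and in the switching on of CREB target genes.

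The measurements are the authors' 3 tables of DESeq2 results, each over 6 libraries, giving each gene's mean normalized count and its log2 fold change, printed below ± the standard error. They hold no value for a single library, so depth per library is unknown, no sample can be shown on its own, and whether groups overlap cannot be seen. Group levels below were estimated from the mean and the fold change and carry no error. They use the fold change with the fit's pull toward 0 removed, so they lie further apart than the deposited fold changes beside them. Fos, the targeted gene, rose in all 3 of the authors' deposited tables, by a log2 fold change of 3.36 ± 0.14 at E1 with shRNA-Ctrl, 2.33 ± 0.15 at E1 with shRNA-cFos and 3.34 ± 0.20 with overexpression. With the pull toward 0 removed under an assumed prior, these values were 3.58, 2.55 and 6.02. The deposited values of activation and overexpression are therefore not alike in size, and the mean of Fos was 1152 normalized counts with shRNA-Ctrl and 27445 with overexpression. No deposited table sets one hairpin against the other. After scaling the shRNA tables to each other, Fos at E0 was estimated at 178 normalized counts in the control arm and 230 in the other, and at E1 at 2126 and 1348. By this estimate the group labelled shRNA-cFos had less Fos at E1 and not at E0. The granule neuron marker Prox1, with a mean of 2741 normalized counts in the authors' deposited shRNA-Ctrl table, was present, as were all 10 granule neuron markers looked for.

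A few isoforms carried most of the signal. Per kilobase of exon, Adcy1, a calmodulin-stimulated cyclase long studied in hippocampal memory, stood at 2110 mean normalized counts in the authors' deposited shRNA-Ctrl table and made up 51.3% of the summed level of the 10 cyclases. Adcy2 (611 per kb), a cyclase that G beta-gamma stimulates, and Adcy9 (579 per kb) came next. Adcy5, Adcy6 and Adcy3 lay between 257 and 205 per kb, Adcy8 at 71.0, Adcy4 and Adcy7 at 22.6 and 22.1, and Adcy10, the soluble bicarbonate-sensitive cyclase, at 1.66. The order of neighbours this close cannot be told from these means, and Adcy9 stood above Adcy2 in the other tables. Among the phosphodiesterases, Pde1b (1188 per kb), Pde2a (1105 per kb) and Pde1a (794 per kb) led and together held most of the summed level. Pde1 enzymes are switched on by calcium and calmodulin, and Pde2a, which cleaves both nucleotides, by cGMP. Pde4a (354 per kb) was the highest of the cAMP-specific enzymes, followed by Pde8b (290 per kb). The catalytic subunits of the photoreceptor enzyme were near the limit of detection, with Pde6b, Pde6a and Pde6c at 0.834, 0.276 and 0.189 per kb.

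**Figure D1:**
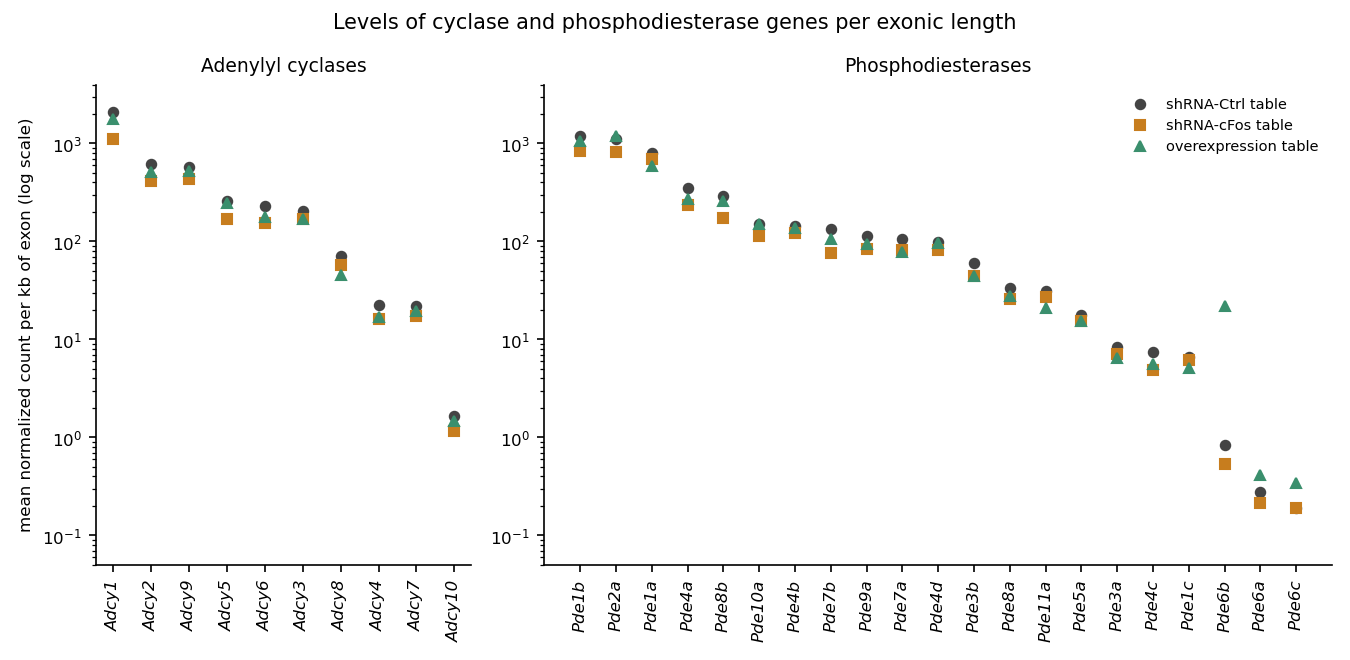
Mean normalized count per kb of exon (log scale) for the 10 adenylyl cyclases and the 21 phosphodiesterases that cleave cyclic nucleotides, ordered by the shRNA-Ctrl table; each symbol is the authors' mean over the 6 libraries of a table, with no error. Adcy1, Pde1b, Pde2a and Pde1a lead in all 3 tables, and Pde6b is the 1 gene whose overexpression symbol lies far above the other symbols.

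With the control hairpin, the cyclases of highest level were lower after activation. Adcy1 fell from an estimated 29237 to 22509 normalized counts, or -0.37 ± 0.08 on the log2 scale of the authors' deposited table (DESeq2 adjusted p = 9.68e-05). Adcy2 (-0.27 ± 0.09) and Adcy9 (-0.23 ± 0.09) fell as well in the authors' deposited table. Adcy6, a cyclase that calcium inhibits, was the 1 cyclase that rose, at 0.25 ± 0.10 in that table. That call is a narrow one, with an adjusted p of 0.0441 from the authors' DESeq2 fit and 0.0556 when no gene is filtered out for a low mean. Adcy7, a low-level cyclase best known from immune cells, stood at 0.47 ± 0.20 and missed the threshold (DESeq2 adjusted p = 0.0538). The other 5 cyclases, Adcy3, Adcy4, Adcy5, Adcy8 and Adcy10, had log2 fold changes between -0.33 and 0.13 in the authors' deposited table and did not pass.

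The phosphodiesterases split in the same comparison. Pde7b, a cAMP-specific enzyme, showed the largest change of any member, from an estimated 805 to 480 normalized counts, or -0.72 ± 0.10 in the authors' deposited table (DESeq2 adjusted p = 8.82e-11). Pde1b went from an estimated 5370 to 3470, or -0.61 ± 0.10 in the authors' deposited table (DESeq2 adjusted p = 1.35e-08). Pde10a, which cleaves both nucleotides and is most abundant in the striatum, fell by 0.36 ± 0.07, and Pde8b, a cAMP-specific enzyme of high affinity, fell by 0.26 ± 0.08, both on the log2 scale in the authors' deposited table.

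Pde11a, Pde3a and Pde4a rose with the control hairpin. Pde11a, a dual enzyme whose brain expression is centred on the hippocampus, was at 0.64 ± 0.16 in the authors' deposited table, from an estimated 101 to 163 normalized counts. Pde3a, which cGMP inhibits, was at 0.60 ± 0.17 there, from an estimated 80.1 to 126. Pde4a was at 0.36 ± 0.06 in the authors' deposited table, from an estimated 1726 to 2225. Its relatives did not pass: Pde4b stood at 0.01 ± 0.08 (95% interval -0.14 to 0.16), Pde4c at 0.22 ± 0.25 and Pde4d at 0.22 ± 0.12 in the authors' deposited table. Thus 1 of the 4 Pde4 genes, the targets of the inhibitor rolipram, was called.

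Of the 31 members tested with shRNA-Ctrl, 4 were higher and 7 lower at an adjusted p under 0.05 from the authors' DESeq2 fit, 11 in all. That is 35.5% of the members, against 33.0% of the 15675 genes tested in that table, of which 16.8% were higher and 16.2% lower. The share of members called was thus near that of all genes. The members' median log2 fold change was 0.01, as was that of all tested genes, with members called in both directions. The 5 members with no adjusted p were Pde6a, Pde6b, Pde6c, Pde6g and Pde6h, whose means were at most 5.01 normalized counts in the authors' deposited table.

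**Figure D2:**
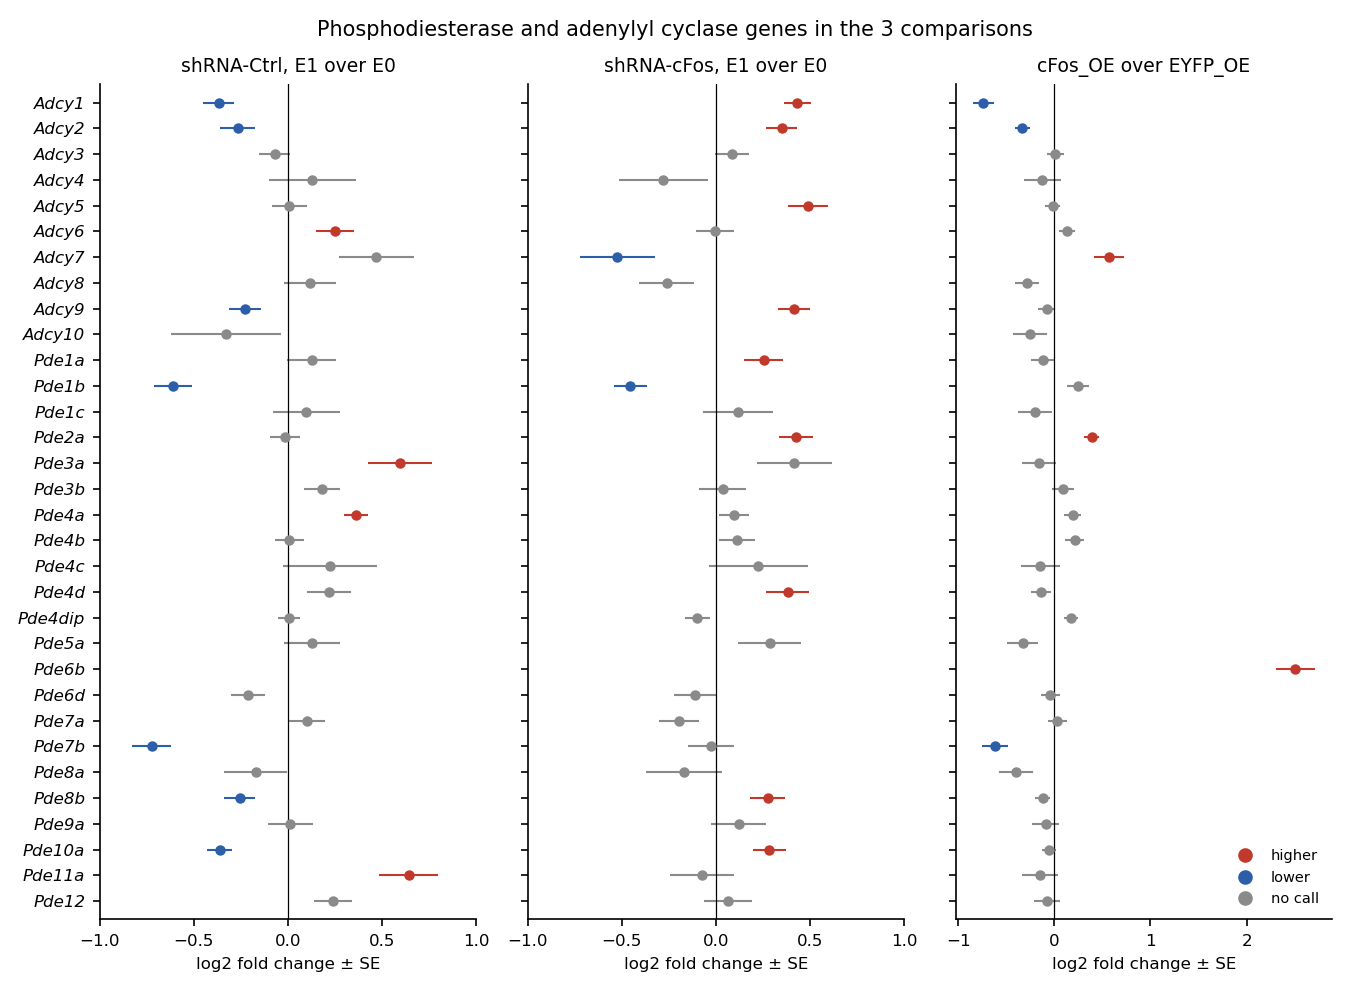
Log2 fold change of each tested member, with its standard error as the bar, in the authors' 3 deposited tables; red and blue points are higher and lower at an adjusted p under 0.05, grey points were not called, and an empty place means that no adjusted p is given. Adcy1, Adcy2, Adcy9, Pde8b and Pde10a are blue with shRNA-Ctrl and red with shRNA-cFos, and Pde6b stands alone at 2.51 with overexpression on the right panel, which has a wider axis.

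With the c-Fos hairpin, the same major cyclases were higher after activation. Adcy1 rose from an estimated 11435 to 15534 normalized counts, 0.43 ± 0.07 in the authors' deposited table (DESeq2 adjusted p = 8.08e-08). This arm was normalized separately, so its estimated levels here and in the next paragraph are not on the control arm's scale. Scaled to the control arm, those of Adcy1 were 15426 and 20956. Adcy9 (0.41 ± 0.09), Adcy2 (0.35 ± 0.08) and Adcy5, a calcium-inhibited cyclase prominent in the striatum (0.49 ± 0.11), rose too in the authors' deposited table. Adcy7 went the other way, at -0.52 ± 0.20 (DESeq2 adjusted p = 0.0349), from an estimated 133 to 85.4 normalized counts. Adcy3, Adcy4, Adcy6 and Adcy8 had values between -0.28 and 0.09 in the authors' deposited table and did not pass.

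Among the phosphodiesterases of this arm, 5 rose and 1 fell. Pde2a rose from an estimated 3082 to 4179 normalized counts, 0.43 ± 0.09 in the authors' deposited table (DESeq2 adjusted p = 3.72e-05). Pde4d (0.38 ± 0.12), Pde10a (0.28 ± 0.09) and Pde8b (0.27 ± 0.09) rose as well in the authors' deposited table. Pde1a, at 0.25 ± 0.10, passed narrowly, with an adjusted p of 0.0481 in the authors' DESeq2 table and 0.0638 with no filter on low means. Pde1b was the 1 that fell, at -0.45 ± 0.09 in the authors' deposited table (DESeq2 adjusted p = 5.21e-06), from an estimated 3657 to 2644. Pde7b, the member with the largest fall under the control hairpin, stood at -0.03 ± 0.12 here in the authors' deposited table, with a 95% interval of -0.26 to 0.21.

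In all, 9 of 30 tested members were higher and 2 lower with shRNA-cFos in the authors' deposited table, 11 in all. This is 36.7% of members, against 28.1% of the 14388 genes tested there. The higher calls made up 30.0% of members against 16.3% of all genes, and the lower ones 6.67% against 11.7%. No call reached 1.5-fold by the authors' deposited fold changes. The largest, that of Adcy7, was 1.44-fold lower as deposited, and its log2 fold change with the pull toward 0 removed was -0.64. The median log2 fold change was 0.10 over the members and -0.00309 over all tested genes, computed from the authors' deposited table.

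Whether the response to activation differed between the hairpins was tested by subtracting the shRNA-Ctrl log2 fold change from that of shRNA-cFos, with a normal approximation and Benjamini-Hochberg adjustment over all 14386 genes with an adjusted p in both tables. The arms share no library. Adcy1 differed by 0.80 ± 0.11 (95% interval 0.58 to 1.02, adjusted p = 1.42e-10 from the authors' DESeq2 estimates), the smallest p of any member. The response of Adcy9 was higher by 0.65 ± 0.12, that of Adcy2 by 0.62 ± 0.12 and that of Adcy5 by 0.48 ± 0.14, computed from the authors' deposited tables. Adcy7 had a lower response, by -0.99 ± 0.28 (95% interval -1.55 to -0.44), which is the largest difference in size and among the least precise. For Adcy3, Adcy4, Adcy6 and Adcy8 the difference did not pass, and for Adcy3 its 95% interval ran from -0.09 to 0.40.

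Of the phosphodiesterases, Pde7b (0.70 ± 0.16), Pde10a (0.65 ± 0.11), Pde8b (0.53 ± 0.12) and Pde2a (0.44 ± 0.12) had a higher response with the c-Fos hairpin, computed from the authors' deposited tables. Pde11a (-0.71 ± 0.23) and Pde4a (-0.26 ± 0.10) had a lower one. The adjusted p of Pde4a was 0.0437 from the DESeq2 estimates and 0.057 with no filter on low means. Pde1b fell in both arms, the 1 member called in the same direction in both. Its difference, 0.16 ± 0.13 with a 95% interval of -0.10 to 0.42, did not pass, which bounds the difference without showing that the responses were equal. Pde3a behaved alike in sign, with 0.60 and 0.42 in the 2 deposited tables, and its difference of -0.18 ± 0.26 was too imprecise to tell.

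In total the response of 11 of 30 members differed, being higher in the shRNA-cFos arm for 8 and lower for 3, computed from the authors' deposited tables. That is 36.7% of members against 23.8% of all genes tested for a difference, with 26.7% against 12.9% higher, and 3 of 30 members against 11.0% of all genes lower. Adcy1, Adcy2, Adcy9, Pde8b and Pde10a went further and were called in opposite directions, lower at E1 with shRNA-Ctrl and higher with shRNA-cFos. These 5 of 30 members stand beside 2.11% of all genes tested in both tables with that pattern, and 3.96% with opposite calls of either kind. No test compared the members' shares with those of all genes.

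**Figure D3:**
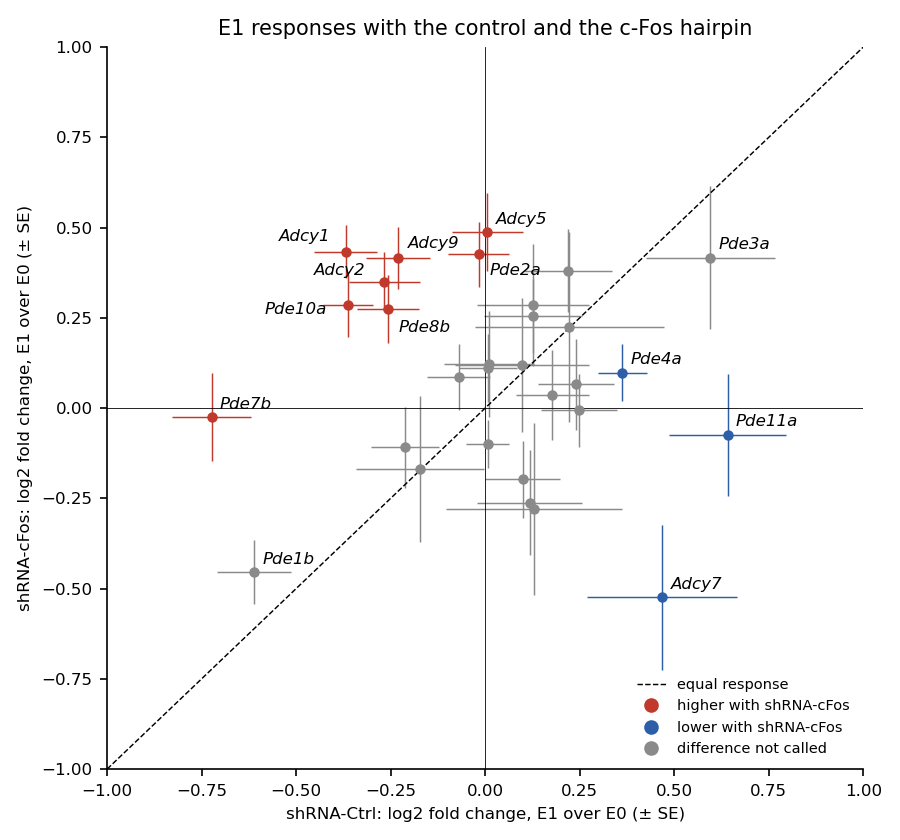
E1 response of the 30 members tested in both arms, as log2 fold change with its standard error, shRNA-Ctrl on the horizontal and shRNA-cFos on the vertical axis; the dashed line marks equal responses and colours mark members whose difference passed an adjusted p of 0.05. Adcy1, Adcy2, Adcy9, Pde8b and Pde10a lie in the upper left, where the signs are opposite, while Pde1b and Pde3a lie near the dashed line.

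Group levels placed on 1 scale show where the arms were apart. The shRNA tables were normalized separately, so levels of shRNA-cFos were shifted by the median log2 ratio at E0 over 12405 genes (-0.43), and the values have no error and no test. In the control arm Adcy1 was estimated at 29237 normalized counts at E0 and 22509 at E1, and in the c-Fos hairpin arm at 15426 and 20956. Set against the control arm, its log2 ratio was thus -0.92 at E0 and -0.10 at E1. Pde7b (-0.69 and 0.03), Pde8b (-0.57 and -0.02) and Adcy5 (-0.44 and 0.06) likewise lay apart at E0 and close together at E1, computed from the authors' deposited tables. Pde10a (-0.30 and 0.36), Adcy9 (-0.34 and 0.33), Adcy2 (-0.45 and 0.18) and Pde2a (-0.24 and 0.21) crossed instead. Adcy7 crossed in the other direction, from 0.68 at E0 to -0.50 at E1. Pde11a (0.66 and -0.12) was estimated higher with shRNA-cFos at E0, and Pde4a (0.00 and -0.26) lower at E1. By these estimates Adcy1, Pde7b and Pde8b were further apart between the arms at E0 than at E1, and the reason was not tested.

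**Figure D4:**
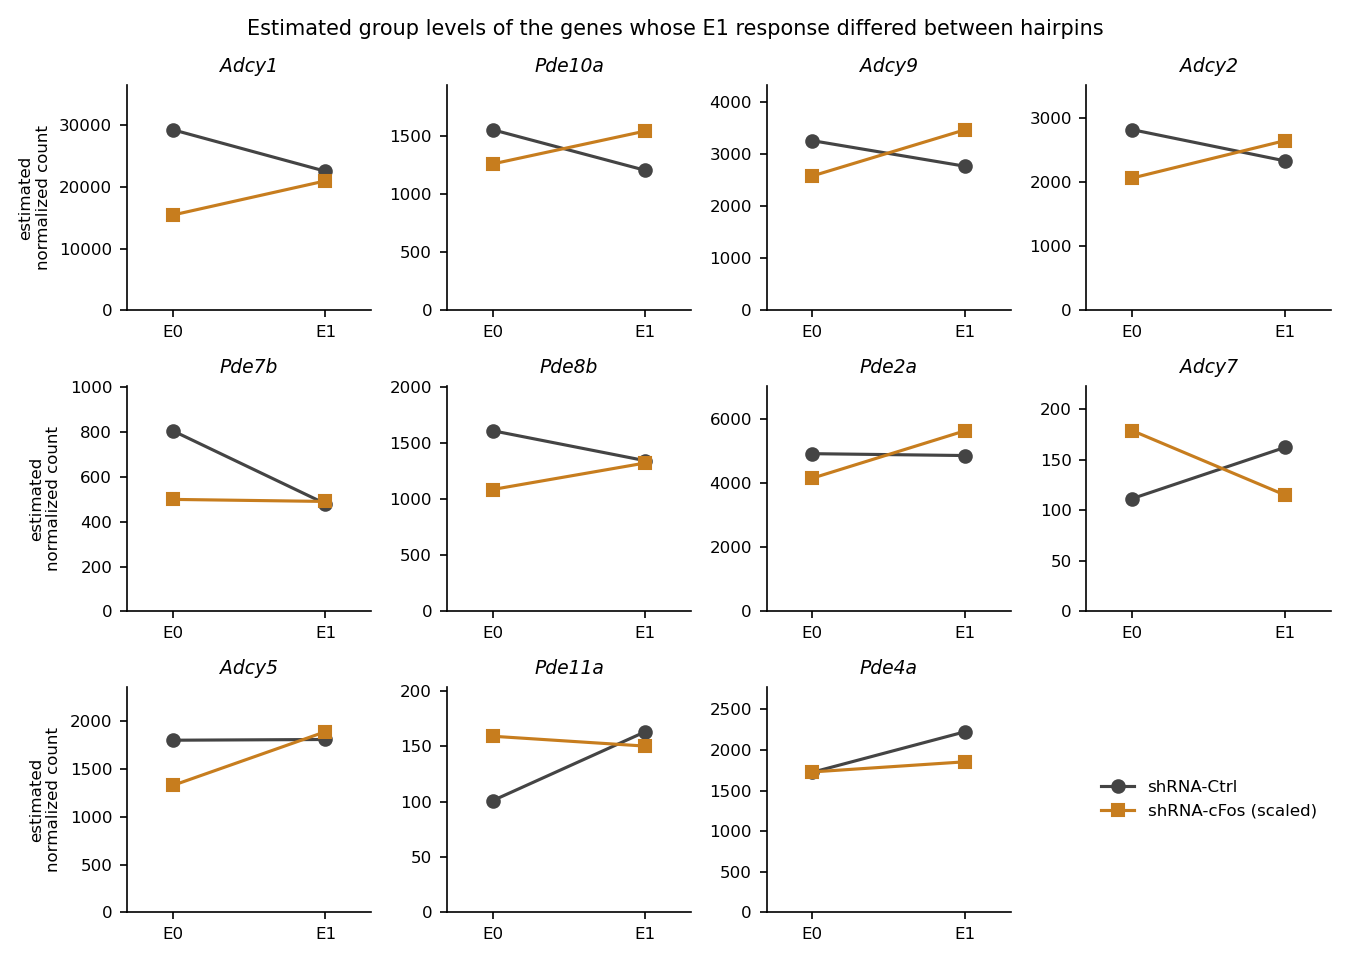
Estimated normalized counts at E0 and E1 of the 11 members whose response differed, with shRNA-Ctrl in dark and shRNA-cFos, scaled to the shRNA-Ctrl table, in orange; each point is a group estimate from the authors' mean and fold change, with no error, and each vertical axis starts at 0. For Adcy1, Pde7b and Pde8b the lines meet at E1 and are apart at E0, and for Pde10a, Adcy9, Adcy2, Pde2a and Adcy7 they cross.

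Markers of cell types moved with these results. Dentate granule neuron markers, 10 in number, fell for 7 and rose for 1 in the control arm (median log2 fold change -0.47) and rose for 6 and fell for 0 in the c-Fos hairpin arm (median 0.24), in the authors' deposited DESeq2 tables. Their summed estimated level went from 29730 to 23444 normalized counts with shRNA-Ctrl and from 14185 to 18109 with shRNA-cFos, and 9 of the 10 had a higher response in the latter arm. Each table's sums are on its own scale, without the shift applied to the members' levels. At E0 the granule marker sums of the arms lay further apart than that shift of -0.43 on the log2 scale, and at E1 they did not. By this estimate, which has no error and no test, the summed granule markers, like Adcy1, Pde7b and Pde8b, were also lower with shRNA-cFos at E0. Microglial markers rose for 7 of 8 with shRNA-Ctrl and fell for 4, with 1 rising, with shRNA-cFos (summed levels 8700 to 11985, and 8283 to 6512). Reactive astrocyte markers rose for 5 of 7 and then fell for 6 of 7 in the same tables (26326 to 34267, and 33208 to 21925). Astrocyte markers outside the reactive list rose for 2 of 8 with shRNA-Ctrl and 5 of 8 with shRNA-cFos, with 0 falling. Of 7 oligodendrocyte markers, 0 were called in the control arm and 1, lower, in the other, by the authors' DESeq2 adjusted p. GABA neuron markers rose in both arms, for 7 of 9 and 5 of 9, and 0 of them differed in response. Striatal projection neuron markers, looked at because Adcy5, Pde10a and Gnal are prominent there, rose for 1 of 8 in the control arm and for 3, with 1 falling, in the other; Gnal is itself on that list. None of these markers had a mean of 0. Granule neuron markers thus moved with Adcy1, Adcy2, Adcy9, Pde8b and Pde10a in both arms. Microglial and reactive astrocyte markers had medians with the sign of Adcy7 in both arms, though Adcy7 was not called with shRNA-Ctrl. Other members had these signs too, such as Pde11a, at 0.64 with shRNA-Ctrl and -0.07, not passing, with shRNA-cFos. Of 8 endothelial and mural markers, 2 rose and 0 fell with shRNA-Ctrl (median 0.24). With shRNA-cFos 1 rose and 1 fell (median -0.25), so these medians had the signs of Adcy7 as well. Of 8 CA pyramidal neuron markers, 1 rose and 1 fell with shRNA-Ctrl (median 0.30). With shRNA-cFos 3 rose and 1 fell (median -0.04). Of 6 immature neuron markers, 2 rose with shRNA-Ctrl (median 0.17) and 4 with shRNA-cFos (median 0.55), and 0 fell in either arm. The part of all these markers in those results was not tested. In tissue RNA, fewer cells of a type and less RNA per cell cannot be told apart.

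With overexpression of c-Fos, fewer members, and fewer genes in all, were called than after activation. Adcy1 fell from an estimated 27588 to 15851 normalized counts, -0.74 ± 0.11 in the authors' deposited table (DESeq2 adjusted p = 9.68e-10). Adcy2 fell as well (-0.33 ± 0.08), and Adcy7 rose (0.57 ± 0.16), in the authors' deposited table. The other 7 cyclases did not pass, with values between -0.28 for Adcy8 and 0.13 for Adcy6. Of the phosphodiesterases, Pde2a, which ranked first per kb in this table (1204 mean normalized counts per kb), rose from an estimated 4590 to 6075, 0.39 ± 0.08 in the authors' deposited table (DESeq2 adjusted p = 1.14e-05). Pde7b fell from an estimated 634 to 391, -0.62 ± 0.13 in the authors' deposited table (DESeq2 adjusted p = 8.28e-05). Pde1b (0.25 ± 0.11), Pde4a (0.19 ± 0.09), Pde4b (0.21 ± 0.10), Pde5a (-0.33 ± 0.16) and Pde8a (-0.40 ± 0.18) had 95% intervals that leave out 0 and did not pass after adjustment over all genes in the authors' deposited table.

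Pde6b, which encodes the beta catalytic subunit of the cGMP phosphodiesterase of rod photoreceptors, rose more than any other member. Its log2 fold change was 2.51 ± 0.20 in the authors' deposited table (5.69-fold, DESeq2 adjusted p = 1.24e-32). This value was pulled toward 0 by the fit. Removing the pull gives 4.32 or 5.97, the 2 solutions under a normal prior with an assumed standard deviation of 2 times the largest standard error. The prior itself is not given in the authors' deposited table, so these values depend on that setting. With a mean of 60.8 normalized counts over the 6 libraries, the level by the deposited and these 2 fold changes was estimated at 1.91 to 18.2 with EYFP and 103 to 120 with c-Fos. In the authors' deposited shRNA tables its mean was at most 2.33 normalized counts, and it was not tested there. The other photoreceptor enzyme genes, Pde6a, Pde6c, Pde6g and Pde6h, had means of at most 2.99 normalized counts in the authors' deposited overexpression table. They have no adjusted p there, so whether they changed was not tested. Of 8 other rod genes, a list added after the value of Pde6b was seen, 3 were tested and 0 were called, and the whole list summed to an estimated 54.2 normalized counts with EYFP and 61.8 with c-Fos. Cnga1, the rod channel gene, had a mean of 0, and it was the 1 gene of that list at 0. The neighbouring genes Pigg (-0.06 ± 0.13), Atp5k (0.06 ± 0.09), Mfsd7a (-0.07 ± 0.19) and Pcgf3 (0.09 ± 0.09) did not pass in the authors' deposited table. In the GRCm38 annotation 846 bases separate Pde6b from Atp5k, the next gene downstream, which lies on the opposite strand.

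The letters of an AP-1 site, the DNA element that c-Fos binds as a dimer with Jun proteins, were looked for in the promoters of the members, because overexpressed c-Fos is the variable here. RefSeq promoter windows (build GRCm38.p6, from 250 bases before to 50 after each annotated start) were at hand for 27 of the 36 members, 52 windows in all. TGACTCA, on either strand, was found in 3 of these windows (5.77%), against 5.20% of all 32851 windows. The 3 windows belong to Pde6b, to 1 of the 3 annotated starts of Adcy7 and to 1 of the 3 of Pde1c. They are printed for Pde6b and Adcy7, both of which rose with c-Fos overexpression, as the 250 bases before the start, 5′ to 3′ on the gene's strand, with the match in capitals. The Pde6b window lies at chr5:108388123-108388372 (plus strand) and its match spans 57 to 51 bases before the start. The Adcy7 window lies at chr8:88288816-88289065 (plus strand) and its match spans 24 to 18 bases before that start.
Pde6b: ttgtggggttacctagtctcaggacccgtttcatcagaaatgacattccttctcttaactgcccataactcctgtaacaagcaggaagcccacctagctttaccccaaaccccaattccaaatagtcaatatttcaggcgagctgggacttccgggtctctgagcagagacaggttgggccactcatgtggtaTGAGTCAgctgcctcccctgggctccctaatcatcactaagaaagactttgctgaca
Adcy7: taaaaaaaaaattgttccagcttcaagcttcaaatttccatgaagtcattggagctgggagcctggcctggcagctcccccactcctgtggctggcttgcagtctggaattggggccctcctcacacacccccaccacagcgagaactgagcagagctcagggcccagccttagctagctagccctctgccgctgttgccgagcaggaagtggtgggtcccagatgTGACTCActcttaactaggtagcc
Pde1c, with the match 246 to 240 bases before its start, had a log2 fold change of -0.20 ± 0.18 with overexpression in the authors' deposited table and did not pass. No match was found in the windows of Adcy1, Adcy2, Pde2a or Pde7b, the other members called with overexpression, which says only that these letters are not in these windows. The letters of the cAMP response element, TGACGTCA, which reads the same on both strands, were in 0 of the 52 windows and in 1.79% of all windows. Its shorter core TGACG, on either strand and shared with the full element, was in 9 of 52 (17.3%) against 20.8% of all windows. A match of letters is not a binding site, and no binding data were used here.

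Across the members, 3 of 32 tested were higher and 3 lower with overexpression in the authors' deposited table, 6 in all. This is 18.8% of members against 13.0% of the 15827 genes tested, with 9.38% against 7.10% higher and 9.38% against 5.86% lower. Set beside the activation tables, Adcy1, Adcy2 and Pde7b were lower both with c-Fos overexpression and at E1 with shRNA-Ctrl, comparisons that share no library. Lower calls made up 16.2% of all genes tested with shRNA-Ctrl and 5.86% with overexpression, and the share lower in both was not counted. Adcy1 was called in all 3 tables, at -0.37, 0.43 and -0.74, and so was Adcy2, at -0.27, 0.35 and -0.33, in the authors' deposited tables. The share of all genes called in all 3 was not counted either, so neither overlap can be read as particular to these members. Adcy7 had values of 0.47 (not passing), -0.52 and 0.57 in the authors' deposited tables, opposite in sign to Adcy1 and Adcy2 in each. Pde2a rose both with overexpression and at E1 with shRNA-cFos, by 0.39 and 0.43 in the authors' deposited tables. Pde10a and Adcy9, which were called in both activation tables, stood at -0.05 ± 0.07 and -0.08 ± 0.09 with overexpression and did not pass. Granule neuron markers fell for 4 of 10 and rose for 1 with overexpression, and their summed estimated level was 24789 with EYFP and 23043 with c-Fos. Reactive astrocyte markers rose for 7 of 7 (14655 to 38802) and microglial markers for 4 of 8 (6939 to 9498), in the authors' deposited table. Immature neuron markers rose for 3 of 6 and fell for 0 there (median 0.46). The part of these cell type markers in the values of Adcy1 and Adcy7 was not tested.

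A further 15 members were tested in at least 1 table and called in none. They are Adcy3, Adcy4, Adcy8, Adcy10, Pde1c, Pde3b, Pde4b, Pde4c, Pde4dip, Pde5a, Pde6d, Pde7a, Pde8a, Pde9a and Pde12, and their log2 fold changes in the authors' deposited tables lay between -0.40 and 0.29. Pde4b, whose product is the cAMP phosphodiesterase most often tied to inflammation and antidepressant action, had 95% intervals of -0.14 to 0.16 with shRNA-Ctrl and -0.07 to 0.30 with shRNA-cFos; with overexpression its interval, 0.01 to 0.41, left out 0 though the adjusted p did not pass. Pde9a, a cGMP-specific enzyme of high affinity, had intervals of -0.22 to 0.24, -0.17 to 0.41 and -0.37 to 0.19 in the 3 comparisons. Pde4dip, the most abundant of the 5 names that are not hydrolases, stood at 0.01 ± 0.06, -0.10 ± 0.07 and 0.17 ± 0.07 in the 3 deposited tables. The remaining 4 members, Pde6a, Pde6c, Pde6g and Pde6h, were tested in no table. Adcy2, Adcy6, Pde2a, Pde3a and Pde8b, which were called somewhere, share exon bases with another gene in the GENCODE M21 annotation. That gene is on the same strand for Pde2a and on the opposite strand for the others, and in no case has a row in the authors' deposited tables. Without a stated strand setting the reads of opposite-strand pairs cannot be told apart, and for Pde2a a strand setting would not separate them.

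The rest of the cyclic nucleotide pathway was followed through 7 lists, to be read against the 33.0%, 28.1% and 13.0% of all genes called with shRNA-Ctrl, with shRNA-cFos and with overexpression. Upstream, the list of 19 receptors coupled to Gs and the peptide PACAP showed 4 higher and 2 lower with shRNA-Ctrl, 2 and 2 of 17 tested with shRNA-cFos and 2 and 3 with overexpression, in the authors' deposited tables. Gpr3, an orphan receptor that raises cAMP without a known ligand, rose in both arms (2.28 ± 0.15 and 1.45 ± 0.19), and its relative Gpr12 fell with shRNA-Ctrl (-1.21 ± 0.11), in the authors' deposited tables. With overexpression the dopamine receptor gene Drd1a (1.98 ± 0.17) and the receptor gene for corticotropin-releasing hormone, Crhr1 (1.65 ± 0.12), rose in the authors' deposited table. Striatal projection neuron markers, a list that holds Drd1a, rose for 2 of 8 and fell for 1 there (summed estimated level 4144 to 7225), and their part in the value of Drd1a was not tested. Among 7 G alpha subunits, Gnal, the Gs relative that couples to Adcy5 in striatum, rose with shRNA-cFos (0.64 ± 0.10) together with Gnao1 (0.46 ± 0.09), in the authors' deposited table. With overexpression 1 of the 7 was called, Gnao1, which fell (-0.23 ± 0.07).

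Downstream, protein kinase A subunits and inhibitors, 9 genes, had 3 higher and 3 lower in the control arm, 1 higher and 1 lower in the c-Fos hairpin arm, and 0 called with overexpression, in the authors' deposited DESeq2 tables. Prkar2a, a regulatory subunit, rose with shRNA-Ctrl (0.49 ± 0.08), and the catalytic subunit gene Prkacb rose in the c-Fos hairpin arm (0.57 ± 0.10), both in the authors' deposited tables. Of the anchoring proteins that place the kinase in the cell, 13 tested in the control arm and 12 in the other, 1 rose and 3 fell in each arm. Akap7 fell in both arms (-1.03 ± 0.10 and -0.54 ± 0.13) in the authors' deposited tables. Among the other cAMP effectors, 4 of 8 rose and 1 fell with shRNA-Ctrl, and Rapgef4, which encodes an Epac, rose with shRNA-cFos (0.43 ± 0.10). In the CREB list, Crem, whose inducible product represses cAMP-driven transcription, rose in both arms (0.88 ± 0.13 and 0.54 ± 0.14), in the authors' deposited tables. The coactivator gene Crtc1 fell with shRNA-Ctrl (-0.42 ± 0.08), rose with shRNA-cFos (0.23 ± 0.07) and differed between them by 0.65 ± 0.10, computed from the authors' deposited tables.

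The last list covers the cGMP side. Of its 11 tested genes for guanylyl cyclases, nitric oxide synthases and cGMP effectors, 7 fell and 0 rose with c-Fos overexpression, with a median of -0.41 against -0.00665 for all genes, in the authors' deposited table. Npr1, the receptor cyclase for natriuretic peptide (-0.94 ± 0.15), Gucy1a3, a subunit of the nitric oxide receptor (-0.55 ± 0.11), and the receptor cyclase Gucy2e (-0.51 ± 0.17) fell most in the authors' deposited table. In the same comparison the cGMP-specific phosphodiesterases Pde5a and Pde9a did not pass, and Pde6b rose. Endothelial and mural cell markers fell for 4 of 8 and rose for 0 with overexpression (median -0.29), and their part in the fall of the guanylyl cyclases was not tested. With shRNA-Ctrl 2 of 12 of this list rose and 3 fell, and with shRNA-cFos 3 of 11 rose and 1 fell, by the adjusted p of the authors' deposited tables.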

How the data were processed

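RNA-seq was made from the dentate gyrus of single mice, 18 libraries in 6 groups of 3. The submitters' processing notes name TopHat2, DESeq2 and build mm9; the sources used here give no versions, counting tool or strand setting. Per the file headers, each of the 3 deposited tables gives a mean normalized count (a signal scale of counts divided by size factors). The authors' fold changes and their standard errors are deposited on the log2 scale, and their Wald score is the ratio of these. The deposited p-value follows from that score by the normal distribution, and the deposited adjusted p by the Benjamini-Hochberg method. The tables hold 0 columns per library, so depth is unknown and no library could be left out.

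Members were called at 0.05 on the deposited adjusted p. For the E1 responses, their difference was put to a 2-sided normal test on the 2 estimates with Benjamini-Hochberg adjustment over 14386 genes (scipy 1.17.1, pandas 2.3.3). Its code was run on simulated estimates drawn with the normal errors that the test assumes. Such a run cannot show how the test behaves with 3 libraries per group. The authors' fold changes are shrunken toward 0; an alternative removed a normal prior whose standard deviation (0.59, 0.53 and 0.41 for shRNA-Ctrl, shRNA-cFos and overexpression) was set to 2 times the largest standard error. Group levels come from the mean and the prior-removed fold change, taking equal group sizes. Exon lengths are from GENCODE M21 (GRCm38) and no coordinate was carried over from mm9. For overexpression, 27 names had become dates and were left out. Every member is named; of the pathway lists, at most 3 called genes of largest change per comparison. The members and lists were chosen with earlier results of these data known, and the rod gene list after the value of Pde6b was seen. Alternatives covered the threshold, a 1.5-fold minimum, a mean count minimum of 50 or none, centring, the prior and the 5 names that are not hydrolases.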

Additional observations from a re-analysis of the deposited data

Results flagged for a closer look

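The E1 response of 11 of 30 tested members differed between the hairpins by the test of the difference itself (shRNA-cFos minus shRNA-Ctrl, log2, normal approximation on the authors' DESeq2 estimates with Benjamini-Hochberg adjustment over all genes). Of all 14386 genes tested for a difference, 23.8% were called, 12.9% higher and 11.0% lower. The members' share and the marker counts below are to be read against these. Higher with shRNA-cFos were Adcy1 (0.80), Pde10a (0.65), Adcy9 (0.65), Adcy2 (0.62), Pde7b (0.70), Pde8b (0.53), Pde2a (0.44) and Adcy5 (0.48). Lower were Adcy7 (-0.99), Pde11a (-0.71) and Pde4a (-0.26). Granule neuron markers (9 of 10 higher), reactive astrocyte markers (6 of 7 lower) and microglial markers (4 of 8 lower) differed between the arms as well. Endothelial and mural markers had 3 lower and 0 higher of 8, and CA pyramidal neuron markers 1 lower and 2 higher of 8. Astrocyte markers had 3 higher and 1 lower of 8 and oligodendrocyte markers 0 of 7 called by this test. Immature neuron markers had 1 higher and 0 lower of 6. The part of these markers in the values above was not tested.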

How the results depend on the processing

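No paired analysis was possible because the tables hold no values per library, and for the same reason no replicate could be left out and no other normalization tried. The total counts of members called stayed within 1.5 times of those reported under every alternative run except a fold minimum. By direction, the lower calls went at an adjusted p under 0.01 from 3 to 1 for the difference of responses and from 2 to 1 with shRNA-cFos, and under the alternatives other than these and the fold minimum each direction moved by at most 1.5 times. With at least 1.5-fold required of the deposited fold changes, 4 members remained called with shRNA-Ctrl, 3 with overexpression and 7 for the difference of responses. With shRNA-cFos it left 0 by the authors' DESeq2 adjusted p, and 0 also at an unadjusted p under 0.05. Under the other alternatives 473 values of single members kept their direction and their side of the threshold, 4 were no longer called and 4 were newly called. Signs turned for 5 uncalled values near 0. On centring at the median of all genes these were Adcy5 (-0.00126) and Pde4dip (-0.00083) with shRNA-Ctrl and, for the difference, Pde4c (-0.00728) and Pde8a (-0.00703). With the prior removed it was the difference of Pde8a (-0.0171). Adcy7 (0.0473), Pde6d (0.0456) and Pde12 (0.0467) passed with shRNA-Ctrl when genes under a mean of 50 were left out, by adjusted p from the DESeq2 p-values. The members' median standard error was 0.10 with shRNA-Ctrl, 0.11 with shRNA-cFos and 0.12 with overexpression on the log2 scale, and these bound the small changes that can be called.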
